A study of Mus with 3 samples.

Results

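NRF2, glutathione and antioxidant genes were followed in the mouse hippocampus as a list of 38 named genes. Members were the probes that the array files label with 1 of these 38 gene names, and each gene was represented by its brightest probe among those whose signal to noise score reached 2.6 on all 3 arrays. Of the 38 genes, 37 passed this rule (49 of their 52 probes), against 13209 of 23756 named genes on the array. Nqo1 was the 1 gene left out. The animals were male Slc:ddY mice aged 6 weeks, in 3 groups of 10. The normal control group (NCO) received distilled water by mouth for 15 days and 5 µL of distilled water on day 8. The peptide group (ACO) received oral water and 10 nmol of Aβ25-35, a short toxic fragment of amyloid β, injected into the cerebral ventricles on day 8. The oil group (ASO) received the same peptide injection and 2000 mg/kg/day of oral shochu oil, the oily fraction of a sweet potato spirit. The labels give no route for the day 8 water of NCO, so whether ACO against NCO also compares injected with uninjected mice is not known here. The hippocampus was taken after a Y-maze test on day 16, RNA of 2 mice made 1 set, and the 5 sets of a group were pooled for 1 array. No replicate exists, and no test or p-value is given.

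NRF2, encoded by Nfe2l2, is a transcription factor that KEAP1 holds in the cytoplasm and marks for degradation until electrophiles or oxidants modify KEAP1. Free NRF2 enters the nucleus and, with small MAF proteins, switches on genes that make glutathione, conjugate electrophiles, reduce peroxides, supply NADPH and store iron. In brain, astrocytes carry much of this programme and supply neurons with precursors of glutathione, while neurons rely strongly on peroxiredoxins, superoxide dismutases and GPX4.

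The share of probes well above background was 50.9% in NCO, 51.7% in ACO and 53.7% in ASO, and the number of arrays limits the precision of every value. Signals below are intensities corrected for background and scaled to a common 75th percentile of gene spots, in arbitrary units. A difference is given on the log2 scale, as the array named first less the other, with 50 added to each signal beforehand, which draws dim genes towards 0. The only error measured was that between spots of 1 array. Over 250 probes printed at 10 spots each, the median SD of the spots' differences was 0.085 between ACO and NCO, 0.094 between ASO and ACO and 0.098 between ASO and NCO. A gene counted as higher or lower at 1.2-fold, a log2 difference of 0.26. Spike-in control probes, which do not come from the mice, were also brightest in ASO, with a median over 5 probes of 0.48 against ACO and 0.34 against NCO, and stood at -0.14 in ACO against NCO. Markers of dentate granule cells (7 of 7) and of CA1 and CA3 pyramidal cells (7 of 8) were well above background. So were 7 of 12 markers of striatum, thalamus and hypothalamus, while Drd2, Adora2a, Avp, Hcrt and Pmch of that list were not.

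**Figure D1:**
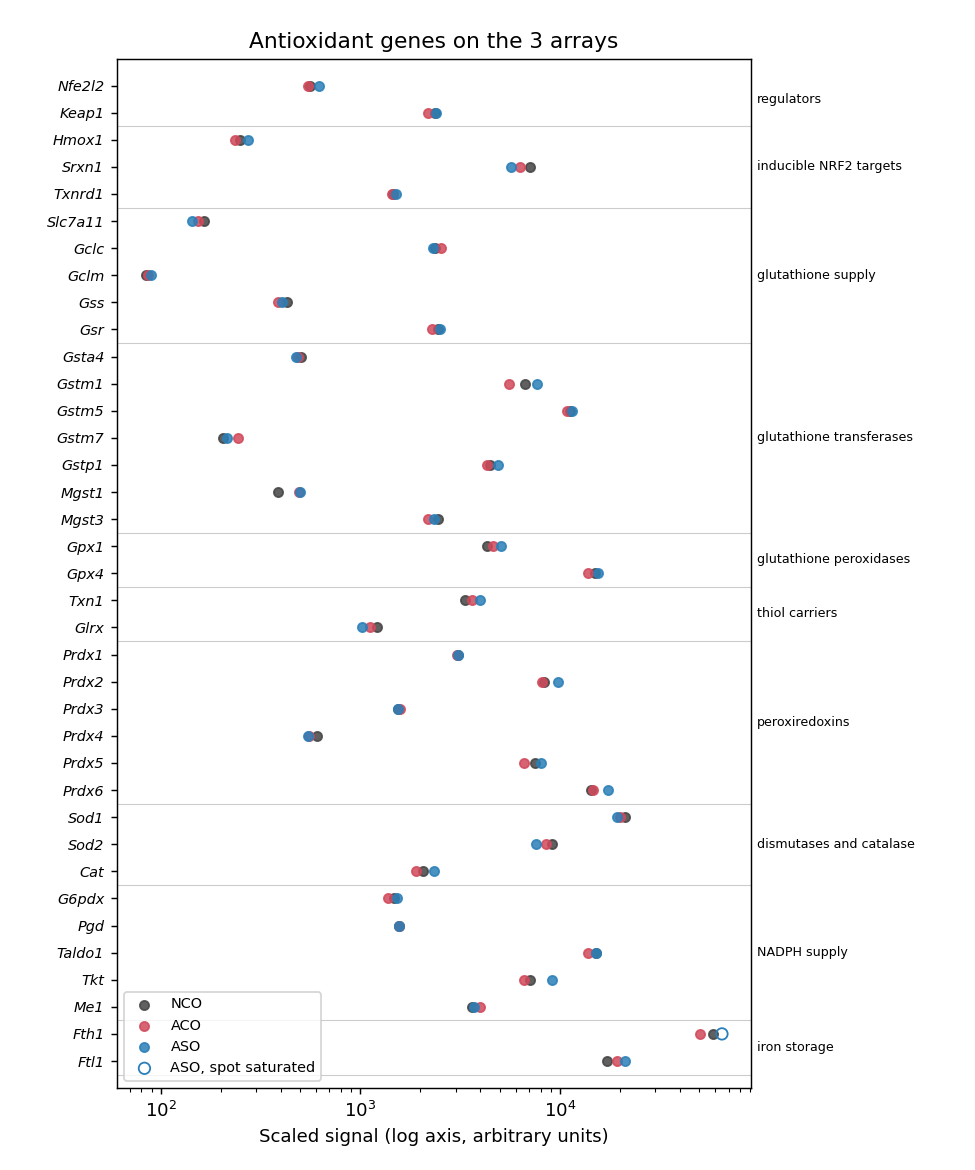
Scaled signal of 37 antioxidant genes (log axis, arbitrary units) on the NCO, ACO and ASO arrays, 1 point per array, grouped by role; the open circle is a saturated spot of Fth1 on ASO. The 3 points of a gene lie close together for most genes, and Mgst1, Tkt and Gstm1 are among the genes whose points separate; levels of different genes are not comparable because each probe binds differently.

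In ACO against NCO most of the list lay slightly below 0. Of 37 genes, 27 lay below 0, where 48.1% of all 13204 genes did, and the median was -0.065 against 0.0051 over all genes. In the brightest signal quartile 5 of 17 members were above 0, where 43.5% of all its genes were. The medians there were -0.057 for members and -0.015 for all genes. In the next quartile down 2 of 10 members were above 0, against 56.4% of its genes, with medians of -0.095 and 0.016. In the quartile below that 1 of 6 members was, against 57.4%, and in the dimmest 2 of 3, against 50.3%. The part of signal level in these values was not tested. At least 1.2-fold higher was 1 gene, Mgst1 (2.70% of the members; 2.78% of all genes), and 0 genes were at least 1.2-fold lower (2.7% of all genes). The members ranged from -0.25 (Gstm1) to 0.31 (Mgst1). All 8 markers of oligodendrocytes were also below 0 on ACO, with a median of -0.15 and a summed signal of 79913 against 90302 on NCO, and 8 of 9 measured choroid plexus markers were above 0, with a median of 0.50. Of these markers F5 was not well above background, and Ttr, the 1 marker below 0, stood at -0.46. The summed signal of this list was 21239 in ACO and 24871 in NCO, a sum in which bright probes weigh most, here Ttr. Their part in the result was not tested, and in whole tissue fewer cells of a type and less RNA per cell cannot be told apart.

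In ASO against ACO, 25 of 36 genes lay above 0, where 46.5% of all 13196 genes did, and the median was 0.088 against -0.016. Below 0 were 11 genes, against 53.5% of all genes. At least 1.2-fold higher were 5 genes, the transketolase gene Tkt, the glutathione transferase gene Gstm1, the catalase gene Cat and the peroxiredoxin genes Prdx5 and Prdx2. Fth1, saturated on ASO, is left out of the 36 and of this count, although its lower bound of 1.28-fold also passes the rule. The 5 genes made up 13.9% of the members, where 10.1% of all genes were that much higher, a share near the background. At least 1.2-fold lower were 0 members, against 9.45% of all genes, and the lowest was Sod2 at -0.15. This comparison shares the ACO array with the one above, so a value that was low on that array alone enters both.

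Against NCO, ASO had 23 of 36 genes above 0 (46.9% of all genes) and 13 below (53.1%), with a median of 0.044 against -0.016. At least 1.2-fold higher were 4 genes, Tkt, Mgst1, the ferritin light chain gene Ftl1 and Prdx6, which was 11.1% of the members against 10.3% of all genes. At least 1.2-fold lower were 2 genes, the sulfiredoxin gene Srxn1 and the mitochondrial superoxide dismutase gene Sod2, 5.56% of the members against 8.4% of all genes. Both shares were close to the background of their comparison.

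Markers of several cell types also differed between ASO and ACO, in both directions. Of 11 microglia markers 10 were above 0 in ASO against ACO, with a median of 0.51, and P2ry12 was below 0, at -0.40. The summed signal of the 11 was 29052 in NCO, 28468 in ACO and 38177 in ASO. All 8 astrocyte markers were above 0, 3 of them past 1.2-fold, with a median of 0.096 and sums of 67336, 71182 and 77821. Among blood cell markers 6 of 7 measured were above 0, with a median of 0.23 and sums of 44294, 42010 and 49052. S100a9 was below 0, at -0.68, and Slc4a1 and S100a8 were not well above background. Oligodendrocyte markers were above 0 in 6 of 8 cases, with a median of 0.095 and a sum of 91510 in ASO. General neuron markers were above 0 in 4 of 7, with a median of 0.084 and sums of 67602 in ACO and 80692 in ASO. Below 0 were 5 of 7 dentate granule cell markers, with a median of -0.26, and 8 of 9 choroid plexus markers, with a median of -0.21. The part of these cells, and of the brighter spike-in controls, in the antioxidant values on ASO was not tested.

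**Figure D2:**
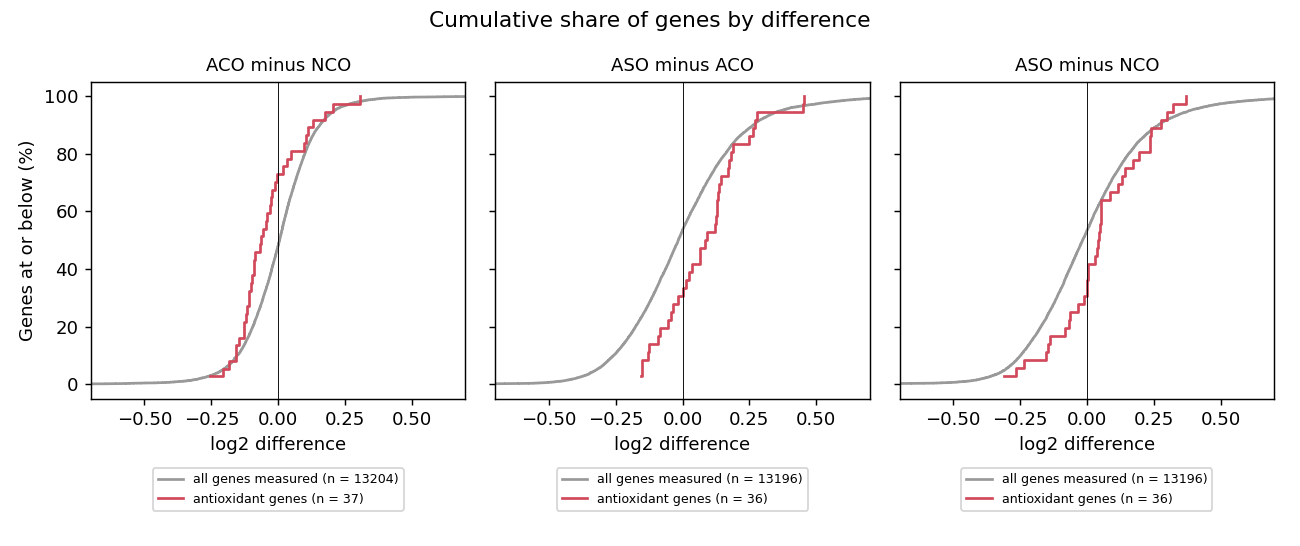
Cumulative share of genes (%) at or below each log2 difference in the 3 comparisons, for all genes measured (grey) and for the antioxidant genes (red). The red line lies left of the grey at 0 in ACO minus NCO, where 27 of 37 members are below 0, and right of it in ASO minus ACO, where 25 of 36 are above 0.

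The regulators differed by less than 1.2-fold in all 3 comparisons. Signal of Nfe2l2, the gene of NRF2 itself, was 558 in NCO, 546 in ACO and 621 in ASO. Keap1, its repressor, stood at 2375, 2185 and 2383. In ASO against ACO, Nfe2l2 stood at 0.17 and Keap1 at 0.12. After correction by the surrounding spots these values were 0.092 and 0.027, and Keap1 in ASO against NCO went from 0.0047 to -0.035. The transcript of NRF2 does not report its activity, which is set mainly by protein stability.

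The inducible targets, which are often read as a measure of NRF2 activity, lay on both sides of 0 in the comparisons with ASO. In ACO against NCO 3 of 3 measured lay below 0, but Hmox1 and Txnrd1 were within the SD between spots. Hmox1, the inducible heme oxygenase, had a signal of 249 in NCO, 236 in ACO and 274 in ASO, with differences of -0.065 for ACO against NCO and 0.18 for ASO against ACO. After correction by the surrounding spots the value for ACO against NCO was 0.017. Srxn1, which repairs overoxidised peroxiredoxins, stood at 7081 in NCO, 6348 in ACO and 5710 in ASO. It was thus lowest on ASO, at -0.31 against NCO and -0.15 against ACO, and stood at -0.16 in ACO against NCO. The spots around the Srxn1 probe stood at -0.15 in ASO against NCO, and after correction by them Srxn1 was at -0.16. Txnrd1, the cytosolic thioredoxin reductase, had signals of 1452, 1437 and 1505 and differences between -0.014 and 0.064. After correction by the surrounding spots Txnrd1 stood at 0.025 in ACO against NCO. The single probe of Nqo1, a quinone reductase that is a classical NRF2 target, had a foreground intensity of 111 in NCO, 114 in ACO and 116 in ASO, with signal to noise scores of 3, 2.06 and 3.75. It was not well above background on ACO and gives no fold.

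Genes of glutathione supply stayed within 1.2-fold in all 3 comparisons. Slc7a11, the cystine importer that limits glutathione synthesis, had a signal of 164 in NCO, 154 in ACO and 143 in ASO, with a difference of -0.15 between ASO and NCO. Gclc, the catalytic subunit of the rate-limiting ligase, stood at 2363, 2533 and 2311 and was highest on ACO, by 0.098 over NCO. Gclm, its modifier subunit, was dim at 84.2, 85.9 and 89.2. These 3 genes, which supply the first step of the pathway, thus showed no common direction. Gss, the synthetase of the second step, stood at 428, 387 and 407, and Gsr, the reductase that recycles oxidised glutathione, at 2463, 2297 and 2516. Both were lowest on ACO, at -0.13 and -0.098 against NCO, while a second Gsr probe stood at 0.019.

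Glutathione transferases, which conjugate glutathione to electrophiles, held the lowest and the highest member of ACO against NCO. Signal of Mgst1, a membrane-bound transferase and peroxidase, was 388 in NCO, 492 in ACO and 497 in ASO. Both arrays of peptide-injected mice were higher, by 0.31 for ACO and 0.32 for ASO. These differences share the NCO array, so a value that was low on that array alone enters both. A second Mgst1 probe had signals of 311, 336 and 410, with differences of 0.10 and 0.35 against NCO, so both probes were past 1.2-fold for ASO against NCO and 1 of 2 was for ACO against NCO. Gstm1, an abundant cytosolic mu class enzyme, stood at 6675 in NCO, 5587 in ACO and 7646 in ASO. It was lowest on ACO, at -0.25 against NCO, and 0.45 higher on ASO than on ACO. Its second probe stood at 2162, 2178 and 2442, with 0.010 for ACO against NCO and 0.16 for ASO against ACO, so the low value on ACO was seen with 1 of 2 probes.

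The other transferases stayed within 1.2-fold with their brightest probe. Gstm5 stood at 11234, 10906 and 11564, a range of differences from -0.043 to 0.084. Gstp1, of the pi class, stood at 4488, 4311 and 4923, at 0.19 for ASO against ACO. Its second probe, which also matches the near-identical Gstp2, stood on the other side at -0.061. Mgst3 had signals of 2440, 2183 and 2330 and was lowest on ACO with both probes, at -0.16 and -0.14 against NCO, and in ASO against ACO its second probe was at 0.29 and its brightest at 0.092. Gsta4, which conjugates the lipid peroxidation product hydroxynonenal, and Gstm7 are given with their spots below.

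Both glutathione peroxidase genes were above 0 on ASO. Gpx1, the cytosolic enzyme, had a signal of 4305 in NCO, 4632 in ACO and 5086 in ASO, and its difference between ASO and NCO was 0.24, or 0.10 after correction by the surrounding spots. Gpx4, which reduces lipid peroxides in membranes and guards against ferroptosis, stood at 15073, 13803 and 15578. It was lowest on ACO, at -0.13 for ACO against NCO and 0.17 for ASO against ACO, and ASO and NCO differed by 0.047, less than the SD between spots.

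The thiol carriers lay on opposite sides of 0 in ASO against NCO. Txn1, cytosolic thioredoxin, had a signal of 3352 in NCO, 3622 in ACO and 3964 in ASO, with a difference of 0.24 between ASO and NCO (0.12 after correction by the surrounding spots). Glrx, glutaredoxin, stood at 1209, 1119 and 1020, with a difference of -0.23. Neither gene passed 1.2-fold.

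Among the 6 peroxiredoxin genes, which encode thiol peroxidases of cytosol, mitochondria and endoplasmic reticulum, 2 were past 1.2-fold higher in ASO against ACO (10.1% of all genes) and 1 in ASO against NCO (10.3% of all genes). Prdx2, a neuronal and red cell enzyme, had a signal of 8330 in NCO, 8180 in ACO and 9828 in ASO, higher on ASO by 0.26 over ACO. It only just passed the 1.2-fold rule, did so under 6 of the 9 alternatives, and ranged from 0.20 to 0.33. Prdx5 stood at 7543, 6638 and 8013, at 0.27 for ASO against ACO and -0.18 for ACO against NCO. After correction by the surrounding spots these Prdx5 values were 0.20, within 1.2-fold, and -0.070. Prdx6, an enzyme of astrocytes that also acts on phospholipids, stood at 14276, 14594 and 17327, at 0.28 against NCO and 0.25 against ACO. ASO was thus the highest array for each of these 3 genes. The other measured Prdx6 probes stood at 0.098 and 0.23 for ASO against NCO, on the same side as the brightest, and 1 of them also matches a transcript that the gene table does not name.

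The remaining peroxiredoxins stayed within 1.2-fold. Prdx1 stood at 3099, 3048 and 3097, with differences of -0.023 to 0.022. Its second measured probe stood at -0.087 for ASO against ACO, on the other side of 0 from the brightest, and at -0.13 for ASO against NCO. Prdx4, the enzyme of the endoplasmic reticulum, stood at 607, 555 and 548, with differences from NCO of -0.12 on ACO and -0.14 on ASO. Prdx3, the mitochondrial enzyme, is described by its 10 spots below.

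Of the superoxide dismutases, which turn superoxide into hydrogen peroxide, Sod2 was past 1.2-fold lower in ASO against NCO and Sod1 was not, and catalase, which removes hydrogen peroxide, was past 1.2-fold higher in ASO against ACO with its bright probe. Signal of Sod1, the cytosolic enzyme, was 21289 in NCO, 20014 in ACO and 19265 in ASO, a difference of -0.14 between ASO and NCO. Its difference between ASO and ACO was -0.055, within the SD between spots, and 0.063 with spot means. Sod2, the mitochondrial enzyme, stood at 9149, 8475 and 7607, a difference of -0.26 that just passed the 1.2-fold rule. Sod2 was highest on NCO and lowest on ASO. Cat stood at 2057, 1912 and 2327, and was 0.28 higher on ASO than on ACO. A dim second Cat probe with signals of 74.6, 91.6 and 79.3 stood at -0.13, so catalase rests on 1 probe.

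Of the genes grouped here under supply of NADPH, the reducing power of glutathione and thioredoxin reductases, Tkt stood out. Its transketolase works in the non-oxidative branch of the pentose phosphate pathway, not at an NADPH-forming step. Tkt had a signal of 7052 in NCO, 6637 in ACO and 9122 in ASO, so ASO was higher than the other arrays by 0.46 (ACO) and 0.37 (NCO). The spots around it stood at 0.13 in ASO against ACO, and after correction by them the difference was 0.32, still past 1.2-fold. Tkt rests on 1 probe at 1 spot.

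The other genes of the NADPH supply group stayed within 1.2-fold. Taldo1, transaldolase of the same branch, stood at 15230, 13757 and 15135, with differences of 0.14 between ASO and ACO and -0.0090 between ASO and NCO. G6pdx, the first enzyme of the oxidative branch, stood at 1473, 1379 and 1530, at 0.14 for ASO against ACO. With quantile normalization Taldo1 stood at 0.046 in ASO against ACO, below the SD between spots. Pgd, the next NADPH-forming enzyme, stood at 1560, 1556 and 1559. The 3 Pgd differences lay between -0.0036 and 0.0029, far within the SD between spots. Me1, cytosolic malic enzyme, stood at 3630, 3978 and 3731, but its 3 probes disagreed, from -0.15 to 0.13 for ACO against NCO and from -0.24 to 0.041 for ASO against ACO.

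The ferritin genes, whose shell stores iron and keeps it from forming radicals, differed in direction on ACO. Ftl1, the light chain, had a signal of 17204 in NCO, 19428 in ACO and 21186 in ASO, higher by 0.17 on ACO and by 0.30 on ASO against NCO. Its probe also matches a transcript the gene table does not name. Fth1, the heavy chain with the ferroxidase site, stood at 58493 on NCO and 50644 on ACO, a difference of -0.21. On ASO 55% of its pixels were saturated, so only bounds hold there, where Fth1 exceeded ACO by at least 1.28-fold and NCO by at least 1.11-fold.

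**Figure D3:**
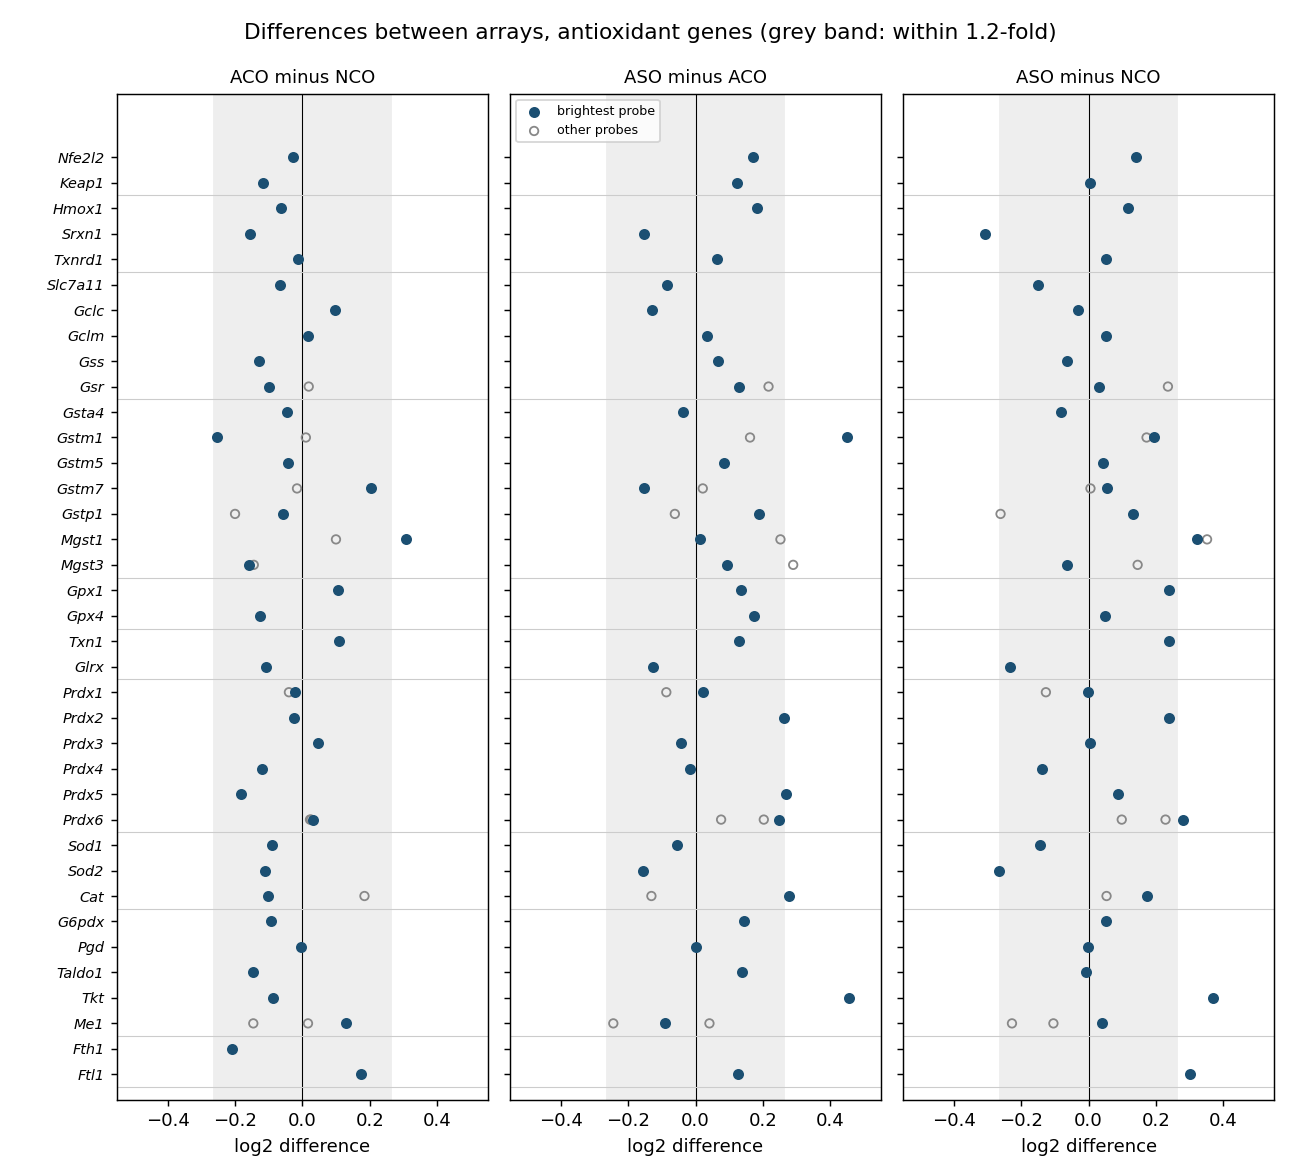
Log2 differences of 37 antioxidant genes in the 3 comparisons, 1 row per gene, with the brightest probe filled and other measured probes open; the grey band marks differences within 1.2-fold, and Fth1 has no point with ASO because its spot was saturated. Most points lie inside the band, with Tkt and Gstm1 farthest right in ASO minus ACO, and open points often fall on the other side of 0 from filled ones.

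Of the 37 genes, 10 had more than 1 measured probe. All probes of a gene lay on the same side of 0 for 5 of 10 genes in ACO against NCO, 5 of 10 in ASO against ACO and 7 of 10 in ASO against NCO. Mgst1 and Prdx6 had every measured probe above 0 in all 3 comparisons. The Prdx6 probes were only at 0.022 to 0.032 in ACO against NCO, and the brightest Mgst1 probe at 0.014 in ASO against ACO. These values were within the SD between spots. Prdx6 fell to -0.032 there after correction by the surrounding spots, and Mgst1 to -0.0031 with spot means. For Gstm7 the brightest probe, printed once, stood at 0.20 for ACO against NCO, while the mean of a dimmer probe printed at 10 spots was -0.016 ± 0.083 (SD over 10 spots).

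Gsta4, Gstm7 and Prdx3 each had a probe printed at 10 spots, which gives the spread between spots for these genes. Prdx3 signals ranged from 1265 to 2005 with a median of 1518 on NCO, from 1382 to 2069 with a median of 1555 on ACO and from 1318 to 1940 with a median of 1528 on ASO. The ranges of the 3 arrays overlapped almost wholly. Position by position, Prdx3 differed by 0.046 ± 0.085 (SD, 10 spots) for ACO against NCO, with 7 of 10 spots above 0, and by -0.042 ± 0.046 for ASO against ACO, with 2 of 10 above 0. The 10 spots of Gstm7 had medians of 166, 163 and 164, and its mean differences were from -0.016 to 0.022.

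Gsta4 signals ranged from 373 to 628 with a median of 501 on NCO, from 383 to 618 with a median of 498 on ACO and from 136 to 702 with a median of 522 on ASO. The low end on ASO was 1 spot, at 136 against 489 at the same position on ACO, and spots around it stood at -0.25. With all 10 spots the mean difference of ASO against ACO was -0.037 ± 0.54 (SD), although 9 of 10 spots were above 0. Without that spot, left out after its value was seen, it was 0.13 ± 0.11 over 9 spots, so the sign of Gsta4 in this comparison rested on 1 spot.

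**Figure D4:**
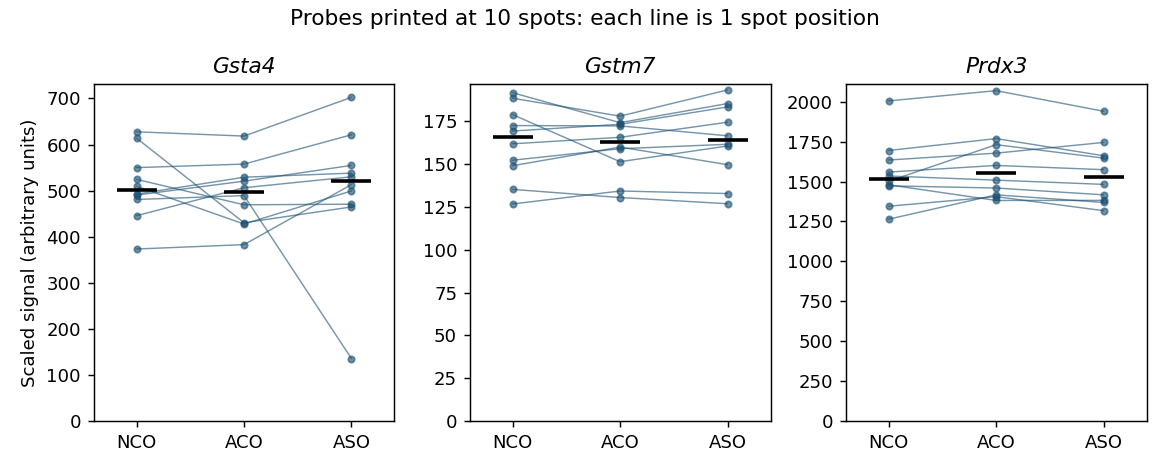
Scaled signal (arbitrary units) of the probes of Gsta4, Gstm7 and Prdx3 that were printed at 10 spots, on the 3 arrays; each line joins 1 spot position and black bars are medians. The lines run nearly level for Gstm7 and Prdx3, and 1 Gsta4 position falls to 136 on ASO.

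Among 98 other genes of these pathways, 83 were measured. In ACO against NCO 5 were at least 1.2-fold higher, 6.02% where 2.78% of all genes were, and 0 lower (2.7% of all genes), with a median of 0.012. In ASO against ACO 8 were higher, 9.64% against 10.1% of all genes, and 5 lower, 6.02% against 9.45%, with a median of -0.026. In ASO against NCO 7 were higher and 7 lower, 8.43% each against 10.3% and 8.4% of all genes, with a median of 0.014. Above 0 in ASO against ACO were 34 of the 83, 41.0%, where 46.5% of all genes were. In ACO against NCO 44 were above 0, 53.0% against 51.9% of all genes, unlike the 38 genes, which lay mostly below 0. In ASO against NCO 45 were, 54.2% against 46.9%. Whether this list differs from the 38 genes was not tested.

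The widest difference there was that of Gstm3, another mu class transferase, with a signal of 278 in NCO, 256 in ACO and 549 in ASO, or 0.97 above ACO and 0.87 above NCO. It rests on 1 spot of 1 probe, and the spots around it stood at 0.084 and 0.081. Other high values on ASO against ACO were Anpep, an aminopeptidase, at 0.47 and Gpx3, the secreted peroxidase, at 0.44, and Ucp2, a mitochondrial carrier abundant in microglia, stood at 0.58 against NCO. Anpep stood at 0.51 in that comparison.

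The lowest on ASO were Acsl4, which loads membranes with oxidisable fatty acids (-0.41 against ACO and -0.39 against NCO), Chac2, a glutathione-degrading enzyme (-0.38 and -0.41), and Gstk1, a mitochondrial transferase (-0.33 and -0.41). The spots around Gstk1 stood at -0.14 and -0.16. In ACO against NCO the extremes were Me3, mitochondrial malic enzyme, at 0.36, Slc11a2, an iron importer, at 0.33 and Mafk, a small MAF partner of NRF2, at 0.28, and at the low end Txnip, a thioredoxin inhibitor, at -0.22, Txnrd2 at -0.18 and Gstm4 at -0.17.

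**Figure D5:**
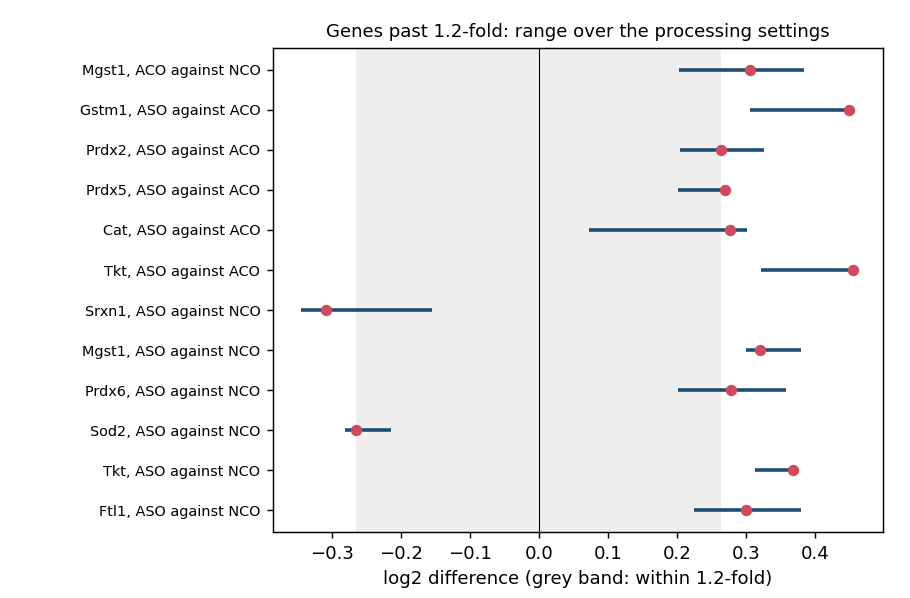
Range of the log2 difference over the main processing and 9 alternatives (blue line) and the main value (red point) for each gene and comparison past 1.2-fold; the grey band marks differences within 1.2-fold. The lines of Tkt (ASO against ACO and against NCO), Gstm1 (ASO against ACO) and Mgst1 (ASO against NCO) lie wholly outside the band, and the other lines reach into it.

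Of the 12 differences past 1.2-fold, 4 stayed past it under all 9 alternatives. They were Tkt at 0.32 to 0.46 and Gstm1 at 0.31 to 0.45 in ASO against ACO, and Tkt at 0.31 to 0.37 and Mgst1 at 0.30 to 0.38 in ASO against NCO. The second Gstm1 probe taken alone stood at 0.16 in ASO against ACO, within 1.2-fold. Cat in ASO against ACO varied most, from 0.073 to 0.30, since the mean over its probes includes the dim one.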

How the data were processed

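Hippocampal RNA, pooled per group, was hybridised to 1 one-colour Agilent array for each of NCO, ACO and ASO, and each array's title gave its group. The protocol in the labels calls the injected groups ACO and a name that no sample carries, taken here as ASO. The authors scanned at 532 nm and quantified spots with GenePix Pro 6.1.0.4, per the file headers, and deposited foreground and background intensity with no normalization. The percent of saturated pixels, the signal to noise score and the spot mark are as deposited. The submitters' processing notes also name Agilent Feature Extraction. The authors' deposited value table gives intensity for 475 probes.

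All 45220 spots of an array were corrected with limma 3.58.1 in R 4.3.3 (normexp, saddle, local background median), and control spots were then left out. Signals were scaled to a common 75th percentile by 1.06 (NCO), 0.949 (ACO) and 0.991 (ASO), 50 was added before log2, and spots of a probe were averaged. A probe was measured at a median signal to noise score of at least 2.6 on all 3 arrays, and a difference with a spot at 50% saturated pixels or more was left out. Genes carry the file's names; other lists were also matched through RefSeq accessions and synonyms (GRCm38.p6, names only). The brightest measured probe stood for a gene. Later steps used Python 3.11.15, numpy 2.4.6 and pandas 2.3.3, and the steps were tested on simulated data.

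With 1 pooled array per group no test was run; counts use a 1.2-fold rule beside the share over all genes. All 38 members are named, and of 98 other pathway genes the 3 highest and 3 lowest per comparison and any at least 1.5-fold apart. Members and lists were chosen with earlier results of these data known. The alternatives were spot means, plain subtraction, quantile normalization, median scaling, an added constant of 10, no filter, a score of at least 5, the mean over probes and correction by surrounding spots (5 rows and columns each way). Sequences and coordinates are not used here.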

Additional observations from a re-analysis of the deposited data

How the results depend on the processing

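Under 9 alternatives the median differences of the members kept their sign, and ranged from -0.075 to -0.045 for ACO against NCO, 0.037 to 0.095 for ASO against ACO and 0.025 to 0.047 for ASO against NCO. The lowest median for ASO against ACO, against 0.088 as reported, came with correction by surrounding spots. Counts at 1.2-fold were small and changed. The mean over probes left 0 genes higher in ACO against NCO instead of 1, since it averages both Mgst1 probes. In ASO against ACO, 2 genes were higher with spot means and 3 with quantile normalization, instead of 5. In ASO against NCO, 2 were higher with quantile normalization instead of 4, and 1 was lower with spot means and 1 after correction by surrounding spots, instead of 2. The cause of these changes was not tested. No difference past 1.2-fold changed sign. In ASO against ACO, 29 of 36 members kept their sign under every alternative, in ACO against NCO 28 of 37 and in ASO against NCO 26 of 36. For genes with 1 measured probe the mean over probes could not change the value, nor could the filters for bright probes. No paired analysis was possible because each group has 1 array, and no array could be left out. Signal over background left out Nqo1 and 1 further probe each of Hmox1 and Prdx6.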

Other observations

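The authors' deposited value table holds 1 probe of the antioxidant list, that of Gsta4. A straight line of foreground intensity, fitted on 448 table probes with 1 spot each, returned the table's values within 0.050 on all 3 arrays, with slopes of 1, 0.917 and 0.893 and 44.2, 46.8 and 43.1 subtracted on NCO, ACO and ASO. For Gsta4 the table's 553.8, 391.9 and 401.7 were those of 1 of its 10 spots. That spot had the lowest ACO against NCO difference of the 10, at -0.47, where the mean of all 10 was -0.045 and 6 of 10 lay above 0. In the authors' deposited table Gsta4 is therefore lower on ACO by a log2 ratio of -0.50.

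Gsta4 was not alone in this. The table holds 27 probes that were printed at 10 spots, and for each of the 27 exactly 1 spot matched within 0.2 intensity units on all 3 arrays. For 16 of them the matched spot had the lowest ACO against NCO difference of the 10 spots and for 4 the highest. Of the other pathway genes in the table (Tfrc, Mafk and Hmox2), Tfrc, the transferrin receptor gene of iron uptake, was also printed at 10 spots: its matched spot stood at -0.43 for ACO against NCO and the mean of its 10 spots at 0.015.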
